A study of Mus musculus with 2 samples.

Results

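The 100 genes described here are the well-expressed noncoding RNA genes of a mouse liver transcript table, out of 45777 gene symbols in that table. They were chosen by measured values and by annotation. A gene was a member when every one of its RefSeq transcripts carried a noncoding (NR_) accession and its summed estimated read count reached 200 in at least 1 of the 2 libraries, and *Malat1*, *Neat1*, *Kcnq1ot1* and symbols beginning with Zfp, H2-, Cyp, Serpin, Rpl, Rps, Gst, Ugt or Mup were set aside. The table held 3105 genes with noncoding accessions alone, of which 565 had at least 10 counts in a library. The name of the group holds only in part. The RefSeq gene table classed 65 members as lncRNA genes, 27 as transcribed pseudogenes, 2 as scRNA, 1 as snRNA and 4 as protein-coding genes, and 1 member (*C730029A08Rik*) was not found in it. Levels were mostly modest, since 64 members stayed under 10 FPKM (a level per transcript length and library size) in both libraries and 25 exceeded 10 FPKM in both.

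Liver RNA of C57BL/6 N mice was sequenced, which were 7 weeks old at the start of a high-fat diet (HFD). All mice of both groups ate the HFD for 18 weeks and received an adeno-associated virus (AAV, serotype 9, with the ubiquitous CMV promoter) by retro-orbital injection at week 13. The vector of the control group carried GFP (AAV-GFP), and that of the other group carried the long noncoding RNA *Wee1-AS* (AAV-*Wee1-AS*), a transcript from the strand opposite to *Wee1*. One library of poly-A-selected RNA per group was analysed here, the sources do not say whether mice were pooled in it (the design text mentions 4 samples), and *Wee1-AS* itself was not analysed here. A difference between the libraries therefore has no replicate check and no p-value.

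The libraries summed to 55466182 (AAV-GFP) and 48079335 (AAV-*Wee1-AS*) estimated counts, and the members took 0.223% and 0.213% of them. Differences are given as log2 ratios of AAV-*Wee1-AS* over AAV-GFP after TMM scaling, with a 95% Clopper-Pearson interval in parentheses that covers counting error only. Of the 7 hepatocyte markers, 6 were analysed, and their summed TPM (a level per transcript length, with an equal sum in each library) was 67898 with AAV-GFP and 76721 with AAV-*Wee1-AS*. Summed TPM of the other marker lists was 384 and 302 for Kupffer cells and macrophages, 139 and 113 for endothelial cells, 26.1 and 33.4 for stellate cells, 3.77 and 3.59 for cholangiocytes, 3.69 and 3.01 for B cells, 3.10 and 1.92 for T and NK cells, 10.6 and 5.37 for neutrophils, and 2037 and 1100 for erythroid cells. The sums rest on the most abundant markers. Log2 ratios of the erythroid markers were above 0 in 0 and below in 3, those of T and NK cells in 0 and 3, and those of neutrophils in 0 and 2, while the other lists held both directions. Hepatocyte markers were above 0 in 3 and below in 3, with *Alb* at 37459 and 53289 TPM and *Ttr* at 13404 and 8510. Kupffer cell and macrophage markers were likewise 3 and 3, with *Cd5l* at 208 and 121 TPM and *Vsig4* at 13.7 and 38.7, and of the 5 stellate cell markers 2 were past 2-fold higher and 1 lower. *Ly6g*, a defining marker of neutrophils, was at 0 in both libraries. The part of cell makeup in the differences was not tested, and in whole liver fewer cells of a type and less RNA per cell cannot be told apart.

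Noncoding RNAs of the liver work in several ways. Long noncoding RNAs (lncRNAs) are capped and spliced like messenger RNAs and can hold proteins or microRNAs, act on chromatin, or serve as precursors of the small nucleolar RNAs (snoRNAs) and microRNAs that lie in their introns and exons. Small structural RNAs made by RNA polymerase III form the core of ribonucleoprotein machines. Transcribed pseudogenes are copies of other genes whose RNA can resemble that of the parent closely, and some RNAs once listed as noncoding hold a short reading frame for a micropeptide.

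The members spanned a wide range. Estimated counts ran from 44 to 16287 with a median of 432.5 in the AAV-GFP library, and from 79 to 8554 with a median of 438 in the AAV-*Wee1-AS* library. Of the 100 members, 67 reached 200 counts in both libraries, 16 did so with AAV-GFP alone and 17 with AAV-*Wee1-AS* alone. Members that passed in 1 library alone had to lean toward that library, and 12 of the 24 members past 2-fold were of this kind (10 higher and 2 lower).

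**Figure D1:**
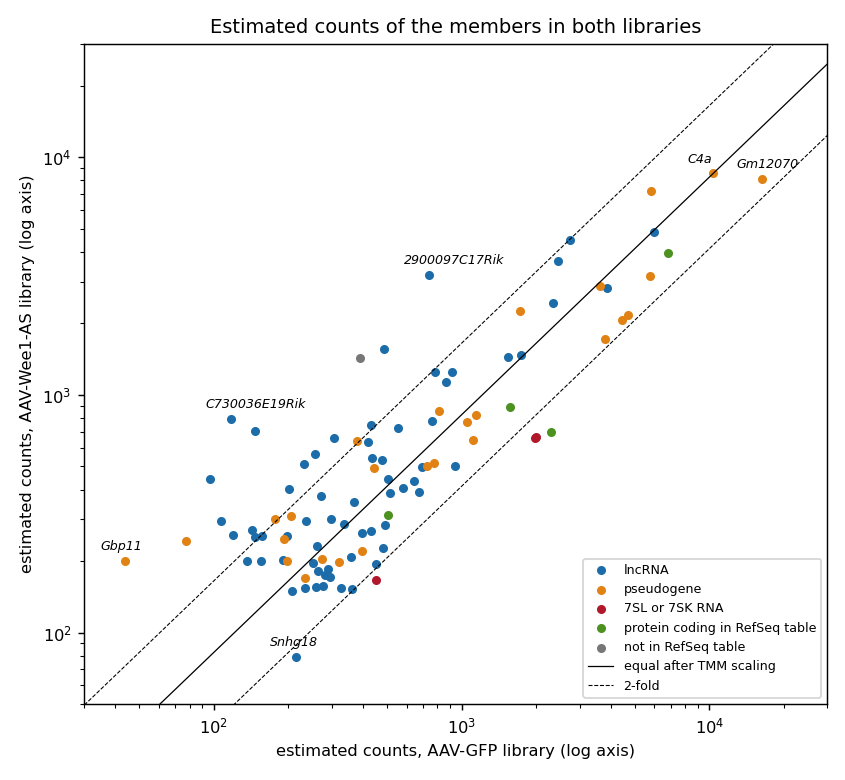
Estimated counts of the 100 members in the AAV-GFP library (horizontal, log axis) and the AAV-*Wee1-AS* library (vertical, log axis), 1 point per gene, coloured by class. The solid line marks equal levels after TMM scaling and the dashed lines a 2-fold difference. *Gm12070* had the highest AAV-GFP count (16287), and *Gbp11* the lowest (44).

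Log2 ratios ran from -1.44 to 3.02, with a median of 0.040 and quartiles of -0.43 and 0.84. Ratios were above 0 in 52 members and below 0 in 48, and the counting interval held 0 in 13. Past 2-fold, 19 members had a higher level with AAV-*Wee1-AS* and 5 a lower one. Scaled by library totals the counts were 15 and 7, and by the upper quartile 15 and 8. Among all 10146 genes with 200 counts in a library, 21.5% were past 2-fold higher and 4.86% lower, with a median of -0.037 and quartiles of -0.53 and 0.83. Among the 15857 genes with at least 10 counts, 22.5% were higher and 8.43% lower, with a median of -0.0020. The members' shares, 19 and 5 in 100, stand beside the shares of genes that meet the same count limit, whose median counts were higher (930 with AAV-GFP and 894 with AAV-*Wee1-AS*). Their intervals lay wholly past 2-fold in 14 of the higher and 3 of the lower members.

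**Figure D2:**
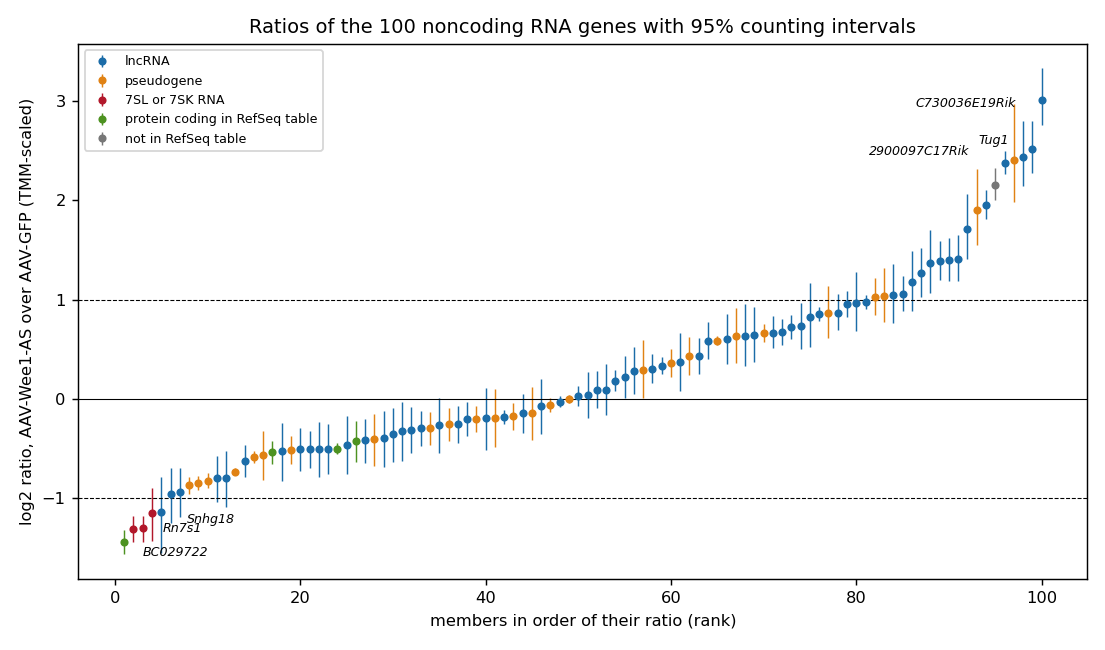
Log2 ratios of the 100 members (vertical) in order of rank (horizontal), with 95% Clopper-Pearson counting intervals as bars and colours by class. Dashed lines mark 2-fold. The highest member was *C730036E19Rik* at 3.02 and the lowest *BC029722* at -1.44, and all 3 of the 7SL and 7SK genes lay below the lower line.

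By class, the 65 lncRNA genes had a median log2 ratio of 0.29, with 14 past 2-fold higher and 1 lower. The 27 pseudogenes had a median of -0.14, with 4 higher and 0 lower. The 3 small structural RNA genes had a median of -1.30 and all 3 were past 2-fold lower. The 4 genes classed as protein coding had a median of -0.52, with 1 lower. These counts stand beside 21.5% higher and 4.86% lower of all genes with 200 counts in a library. Nothing particular to a class is read from them. Median GC content of the transcripts also differed, at 48.1% for lncRNAs, 52.2% for pseudogenes, 62.3% for the small RNAs and 51.0% for the genes classed as protein coding. The last class had a lower median ratio than the pseudogenes at a lower GC content, so the medians did not all follow GC content. The relation of ratio to GC content is described at the end. With the trends of GC content and length over all genes removed, the medians were 0.034 for lncRNAs, 0.065 for pseudogenes, -0.048 for the small RNAs and -0.70 for the genes classed as protein coding, so the order of the classes was not kept.

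The member with the largest ratio was *C730036E19Rik* (chr1:151138034-151144095, + strand, mm10), whose RefSeq synonym is *lncLSTR*, a liver-enriched lncRNA known for its role in plasma triglyceride regulation. Its estimated counts were 117 with AAV-GFP and 793 with AAV-*Wee1-AS*, or 0.686 and 5.41 FPKM. The AAV-*Wee1-AS* library was thus higher, by 8.08-fold after scaling, with a log2 ratio of 3.02 (2.76 to 3.33). With the trends of GC content and length over all genes removed, the log2 ratio was 2.70.

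*Tug1* (chr11:3639785-3648814, - strand), a conserved lncRNA found in the nucleus and the cytoplasm, had 147 and 703 counts. Its log2 ratio was 2.52 (2.28 to 2.80), and it was 0.69 with the trends removed. *2900097C17Rik* (chr2:156388063-156392979, - strand) is named *Norad* in the RefSeq table and is known as an abundant cytoplasmic lncRNA needed for stable chromosome numbers. Its counts were 742 and 3197, the most of any member past 2-fold higher, and its log2 ratio was 2.38 (2.27 to 2.50). With the trends removed, it was 1.44.

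*Oip5os1* (chr2:119594296-119600746, + strand) is *Cyrano*, a lncRNA known for triggering the decay of the microRNA miR-7 through an extended complementary site. It had 231 and 510 counts, with a log2 ratio of 1.41 (1.19 to 1.65) and 0.50 with the trends removed. The site is shown because it was not in the GENCODE transcript nearest in length to the models counted here. Mature miR-7a-5p, from RefSeq (GRCm38.p6) with its seed in capitals, and the site in the GENCODE *Cyrano* transcript of 8300 bases (bases 2934 to 2959), with the seed match in capitals, read 5′ to 3′ as follows:

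mmu-miR-7a-5p: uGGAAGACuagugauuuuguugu
Oip5os1 site: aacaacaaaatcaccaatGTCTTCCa

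The deposited *Oip5os1* models are 1551 and 1382 bases long. The GENCODE transcript nearest in length, 1381 bases, held 1 other match to the seed but not this site. The sequence of the 1551-base model, which took most of the counts, was not examined.

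*Mir22hg* (chr11:75461539-75466690, + strand) is the host transcript of miR-22, which is processed from a hairpin at chr11:75463716-75463810 within its span. Its counts were 257 and 562, with a log2 ratio of 1.40 (1.19 to 1.63) and 0.74 with the trends removed. A poly-A library measures the host transcript and not the mature microRNA. Its mature products, from RefSeq (GRCm38.p6) with the seed in capitals, are shown because the arms have different seeds and hence different target sites:

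mmu-miR-22-5p: aGUUCUUCaguggcaagcuuua
mmu-miR-22-3p: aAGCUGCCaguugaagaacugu

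*Firre* (chrX:50563120-50635321, - strand), a nuclear lncRNA of the X chromosome that binds the matrix protein HNRNPU through a repeated element, had 107 and 294 counts. Its log2 ratio was 1.72 (1.41 to 2.07), and it was 1.41 with the trends removed. *Hectd2os* (chr19:36619418-36689479, - strand), transcribed opposite to the ubiquitin ligase gene *Hectd2*, had 487 and 1561 counts and a log2 ratio of 1.95 (1.81 to 2.11). With the trends removed, its value was 0.58.

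The other members among the 10 highest ratios have no function that can be given here, apart from *Gbp11*, which belongs to the interferon-inducible guanylate-binding family. *Gbp11* had 44 and 200 counts (log2 ratio 2.41), the smallest AAV-GFP count of any member. *Gm14403* had 97 and 443 counts (2.44), and its value with the trends removed was 1.05. *C730029A08Rik* (chr9:95566971-95567935) had 388 and 1436 counts (2.16) and no GENCODE match. *Gm13363* had 77 and 242 counts (3.73-fold after scaling), and its resemblance to *Ptp4a1* is described with the pseudogenes. *Gbp11*, *Gm14403* and *Gm13363* each had fewer than 100 counts with AAV-GFP, so their ratios rest on a small denominator. The remaining 9 members past 2-fold higher had log2 ratios between 1.03 and 1.40, *Mir22hg* among them.

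Of 21 snoRNA host genes listed, 17 had at least 10 counts, 2 were past 2-fold higher, 1 was lower, and their median log2 ratio was 0.088. The counts of this and the following lists stand beside 22.5% higher and 8.43% lower of all genes with at least 10 counts, and nothing particular to a list is read from them. Host transcripts of snoRNAs release the small RNAs that guide ribosomal RNA modification from their introns. *Gas5*, *Snhg8* and *Snhg18* were members. *Gas5* (chr1:161034916-161038539, + strand), whose spliced RNA turns over with translation and can bind the glucocorticoid receptor, had 863 and 1138 counts and a log2 ratio of 0.68 (0.55 to 0.81). *Snhg8* had 583 and 404 counts and a log2 ratio of -0.25 (-0.44 to -0.066). *Snhg18* (chr15:32240568-32244662, - strand) had 214 and 79 counts and a log2 ratio of -1.14 (-1.55 to -0.78), the lowest of the lncRNA members, and its AAV-*Wee1-AS* count was the smallest of any member. The hosts thus lay on both sides of equality. With the trends removed the values were 0.17, -0.66 and -1.35, so *Gas5* came closer to 0 and the others went further below it. Over the whole list, *Epb41l4aos* (1.40) was then past 2-fold higher, and *Snhg18*, *Snhg3* (-1.15) and *Snhg4* (-1.59) were lower. The 2 that were higher before, *Snhg11* and *Snhg5*, stood at 0.59 and 0.70.

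The other lists were small among the genes with at least 10 counts. Of 18 names listed as microRNA host genes, 5 had at least 10 counts, with 4 higher, 1 lower and a median log2 ratio of 1.49. The names included *Cyrano*, which is described above for its miR-7 site and not as a host. It was deposited as *Oip5os1* and is not among the 5. *Mir22hg* was the single member among them. The lower gene was *H19* (187 and 33 counts, log2 ratio -2.16), which was at -1.56 with the trends removed. Of the 4 higher ones, *Mir99ahg* (0 and 11 counts) and *Mir17hg* (2 and 13) were at or under 3 counts with AAV-GFP and entered through the other library, and with the trends removed 1 of the 4 (*Mir99ahg*) was past 2-fold. Of 10 imprinted noncoding RNAs, 3 were retained, with 0 higher and 1 lower, again *H19*. The member among them, *Peg13*, a paternally expressed lncRNA within *Trappc9*, had 645 and 433 counts and a log2 ratio of -0.30 (-0.48 to -0.12). *Trappc9* itself had 1720 and 846 counts and a log2 ratio of -0.74, and the GENCODE exons of the pair do not overlap. Of 4 RNAs of the X inactivation centre, 2 were retained, with 1 higher and 0 lower, and neither was a member. Of 26 names of widely expressed regulatory lncRNAs, 16 were found under that symbol and retained. Of these, 6 were higher and 1 lower (*Hotairm1*, 11 and 3 counts), with a median of 0.34. *Oip5os1* and *Cyrano* are the same gene under separate names on this list. *Norad* is on it too but was deposited as *2900097C17Rik*, so these counts leave it out (log2 ratio 2.38). The interval of *Hotairm1* (-4.08 to 0.32) held 0. The members found by symbol were *Tug1*, *Oip5os1*, *Firre* and *0610005C13Rik*, and the first 3 were among those higher. *2900097C17Rik* (*Norad*) is a further member on the list and was also past 2-fold higher. With the trends removed, the genes past 2-fold higher were *2900097C17Rik* (1.44), *Firre* (1.41), *Pvt1* (1.33) and *Hnf4aos* (1.17), and *Hotairm1* was at 0.079.

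The small structural RNAs were the one class with every member past 2-fold lower. *Rn7s1* (chr12:69159295-69159593, + strand) and *Rn7s2* (chr12:69361183-69361481, - strand) encode 7SL RNA, the scaffold of the signal recognition particle that brings secretory proteins to the endoplasmic reticulum. *Rn7s1* had 1981 and 660 counts, and *Rn7s2* had 1991 and 664. Their log2 ratios were -1.31 (-1.44 to -1.18) and -1.30 (-1.44 to -1.18). The near-equal values are not separate observations, since the GENCODE transcripts of both genes are identical at all 300 bases.

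*Rn7sk* (chr9:78175302-78175633, - strand) encodes 7SK RNA, which holds the elongation factor P-TEFb in an inactive complex. It had 450 and 166 counts and a log2 ratio of -1.15 (-1.43 to -0.90). All 3 transcripts are short, 299 to 332 bases, and rich in GC (58.0% to 62.3%). With the trends removed their values were -0.050 (*Rn7s1*), -0.048 (*Rn7s2*) and 0.019 (*Rn7sk*), so none remained past 2-fold and *Rn7sk* changed sign. RNA polymerase III transcripts carry no poly-A tail of the messenger RNA kind, and the libraries were poly-A selected. Of the 10 structural RNA genes listed, 5 had at least 10 counts, 4 were past 2-fold lower and 0 higher, and the median log2 ratio was -1.30. The count includes both 7SL genes, and with the trends removed 0 of the 5 were past 2-fold, from -0.63 for *Rpph1* to 0.41 for *Rmrp*.

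A further 4 members have only noncoding accessions in the deposited table but are protein coding in the RefSeq table. *Mtln* encodes mitoregulin, a micropeptide of the inner mitochondrial membrane linked to fatty acid oxidation, and had 507 and 311 counts with a log2 ratio of -0.43 (-0.64 to -0.22). *1810058I24Rik* (synonym *Stmp1*, a short transmembrane protein of mitochondria) was among the most abundant members, with 6794 and 3964 counts, or 93.4 and 62.8 FPKM, and a log2 ratio of -0.50 (-0.56 to -0.44). *0610012G03Rik* had 1575 and 894 counts and a log2 ratio of -0.54 (-0.66 to -0.42). All 4 were lower with AAV-*Wee1-AS*, and the interval of each excluded 0. Removal of the trends left *Mtln* at -1.02, *1810058I24Rik* at -0.75 and *0610012G03Rik* at 0.076, so the last was no longer lower.

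*BC029722* (chr2:155817730-155819203, - strand) had the lowest log2 ratio of any member. Its counts were 2295 and 697, or 25.6 and 9.02 FPKM, and the log2 ratio was -1.44 (-1.57 to -1.32). With the trends removed, it was -0.65. Its start lies 634 bases downstream of *Eif6*, a translation initiation factor gene on the same strand, which had 5725 and 2416 counts and a log2 ratio of -0.97 (-1.04 to -0.90). Reads that run on from an upstream gene were not separated from those of *BC029722*.

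Transcripts per length placed several pseudogenes at the top of the group. *Gm12070* was first, at 154 and 88.6 FPKM, followed by *Gm1821* at 127 and 81.0 FPKM. *Oaz1-ps* stood at 71.3 and 38.6 FPKM. *Gm12070* resembles *Gapdh*, the glycolytic enzyme gene, *Gm1821* resembles the ubiquitin gene *Ubb*, and *Oaz1-ps* resembles *Oaz1*, the inhibitor of ornithine decarboxylase. All lay within 2-fold between the libraries, with log2 ratios of -0.73, -0.59 and -0.82. With the trends removed the values were -0.089, -0.30 and 0.049, so *Oaz1-ps* was no longer lower.

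There were 16 members, 14 of them pseudogenes, that had a near-identical transcript of another expressed gene, meaning at least 95% identity over at least 80% of the member's GENCODE transcript. For *Gm12070* there were 59 such genes. To show how little separates a copy from its parent, the windows below hold the single mismatch between *Atp6v0c-ps2* (chr6:37805975-37807107, + strand) and *Atp6v0c*, a subunit of the vesicular proton pump, over 465 bases compared, and the single mismatch between *Gm12070* (chr11:26785108-26787860, + strand) and *Gapdh* over 1002 bases. The capital marks the base that differs:

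Atp6v0c-ps2: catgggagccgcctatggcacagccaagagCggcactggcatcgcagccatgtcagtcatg
Atp6v0c: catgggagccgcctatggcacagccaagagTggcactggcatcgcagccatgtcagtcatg
Gm12070: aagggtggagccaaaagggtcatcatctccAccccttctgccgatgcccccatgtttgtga
Gapdh: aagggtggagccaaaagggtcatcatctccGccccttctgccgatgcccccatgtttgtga

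A read that does not cover the mismatch fits both genes, and the sources do not state how such reads were divided. The deposited models of these copies are longer than the GENCODE ones (1133 and 1647 bases), so some of their reads may lie outside the stretch compared. *Atp6v0c-ps2* had 4720 and 2169 counts, and *Atp6v0c* had 11614 and 5335. The log2 ratios were -0.843 and -0.844, and with the trends removed that of *Atp6v0c-ps2* was -0.068. *Gm12070* had 16287 and 8096 counts, and *Gapdh* had 105861 and 51701, with log2 ratios of -0.73 and -0.76.

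Among the 16 members, *Rn7s1* and *Rn7s2* are each other's partner, so that pair is counted for each of them. Over all 16, the absolute difference in log2 ratio between a member and its most abundant near-identical partner had a median of 0.056, and it was under 0.2 in 13. *Gm12338* (log2 ratio -0.51) and the cytochrome oxidase gene *Cox7c* (-0.52) are of this kind, as are *Gm5424* (-0.061) and the urea cycle gene *Ass1* (-0.12), and *C4a* (0.00010) and the complement gene *C4b* (-0.048). How many counts of such members came from reads of the partner was not tested. The other 3 members differed more from the partner. *Gm3219* had 444 and 494 counts (0.43) against 731 and 464 for *Bcl7c* (-0.38), and it begins 22 bases downstream of *Glud1*, the glutamate dehydrogenase gene, on the same strand (0.58). *Marcksl1-ps4* had 205 and 310 counts (0.87) against 755 and 1963 for *Akr1c19* (1.65), which ends 374 bases upstream of it in the deposited table, while a longer GENCODE transcript of *Akr1c19* holds the whole sequence. *Gm13363* lay below the phosphatase gene *Ptp4a1* (985 and 3818 counts, log2 ratio 2.23) by 0.33 on the log2 scale.

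**Figure D3:**
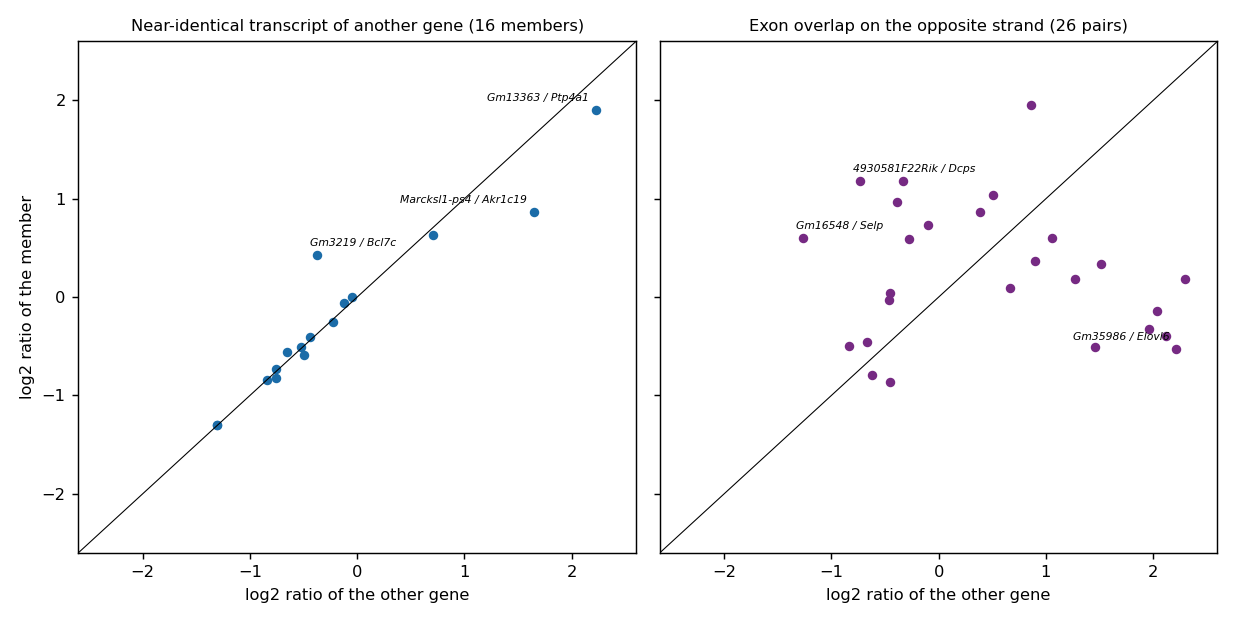
Log2 ratio of a member (vertical) against that of the other gene (horizontal), for 16 members with a near-identical transcript of another gene (left) and 26 pairs whose exons overlap on opposite strands (right). The diagonal marks equal ratios. On the left, 13 of the 16 members lie within 0.2 of it (*Rn7s1* and *Rn7s2* among them, each the other's partner). *Gm3219* (0.81), *Marcksl1-ps4* (0.79) and *Gm13363* (0.33) lie further off. The median absolute difference is 0.056, and those on the right scatter, with a median absolute difference of 0.97.

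Members whose exons overlap another gene on the opposite strand formed 26 pairs (23 members) with more than 3 counts of the partner in both libraries. The library kit marks the strand, but the sources do not state whether the counting used it. The absolute difference of the log2 ratios in these pairs had a median of 0.97, it exceeded 0.5 in 19 pairs and 1 in 13, and the sign differed in 12. The widest gap was between *Gm35986* (275 and 157 counts, log2 ratio -0.53) and the fatty acid elongase gene *Elovl6* (1506 and 5785, 2.22). *2810025M15Rik* had 280 and 175 counts (-0.40), and *Rasal2*, a Ras GTPase-activating protein gene, had 139 and 503 (2.12). *LOC102632463* had 234 and 154 counts (-0.32), and *Prox1*, a hepatocyte transcription factor gene, had 1537 and 4937 (1.96). *Lppos* had 516 and 385 counts (-0.14), and *Lpp* had 449 and 1524 (2.04). These pairs have the widest gaps of the 26, so the choice itself favoured opposite directions. In each, the gene faced by the member was past 2-fold higher with AAV-*Wee1-AS*. The antisense member was lower, with an interval that excluded 0 except for *Lppos*. In the pair with the next widest gap, *Brip1os* (0.19) and *Med13* (2.30) were both higher. After removal of the trends, *Gm35986* was at -0.83, *LOC102632463* at -0.22, *Lppos* at -0.011 and *2810025M15Rik* at 0.38, so the last was no longer lower. Such values are not given for the genes they face, so the gaps without the trends are not known here.

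Other pairs went the opposite way or together. *4930581F22Rik* had 143 and 269 counts (1.18), while *Dcps*, the scavenger decapping enzyme gene, had 930 and 460 (-0.74) and the sialyltransferase gene *St3gal4* had 5675 and 3717 (-0.33). *Hectd2os* was far above *Hectd2* in counts, which had 31 and 48 (0.86, 0.23 to 1.61). *0610005C13Rik*, the third member by FPKM averaged over both libraries, at 84.6 and 79.5 FPKM, had 6007 and 4860 counts and a log2 ratio of -0.028 (-0.083 to 0.027), and *Bcat2*, a branched-chain aminotransferase gene opposite to it, had 806 and 482 (-0.46). *Gm15417* (-0.79) and *Zbtb7b* (-0.62) differed least, by 0.17. In all, 39 members overlapped another gene by span and 49 members had neither an overlap nor a near-identical partner. Of those 49, 13 were past 2-fold higher and 2 lower, beside 21.5% and 4.86% of genes with 200 counts.

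A further member lay against a gene on its own strand. *Gm10768* (chr19:43838803-43840845, + strand) begins 471 bases downstream of *Abcc2*, the canalicular exporter of bilirubin conjugates, and GENCODE places its transcript under that gene. *Gm10768* had 2746 and 4469 counts and a log2 ratio of 0.98 (0.91 to 1.05), which was -0.26 with the trends removed, and *Abcc2* had 14277 and 21283 counts and a log2 ratio of 0.85 (0.82 to 0.88). Run-on from *Abcc2* was not tested.

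Several abundant members had nearly equal levels after TMM scaling. The 5 nearest to equality among members with 1000 counts in both libraries were *C4a* (10370 and 8554 counts), *0610005C13Rik*, *4931408D14Rik* (1744 and 1474, log2 ratio 0.035), *Gm5424* (3622 and 2864) and *AW112010* (3880 and 2818, -0.18). *AW112010*, a transcript known from activated immune cells, stood at 77.8 and 65.5 FPKM. Its interval (-0.25 to -0.11) excluded 0, which shows that at such counts the counting error is far smaller than 2-fold. Once the trends were removed, *AW112010* was past 2-fold lower (-1.23), and the values of *0610005C13Rik* (0.63), *Gm5424* (0.51) and *C4a* (0.20) were further from equality, while *4931408D14Rik* had no GC value. With 1 library per group, the spread between mice is unknown for them too. *Gm20319*, opposite to the interleukin-1 receptor accessory gene *Il1rap*, was higher at 66.4 and 80.3 FPKM (2335 and 2433 counts, log2 ratio 0.34), whereas *Il1rap* had 2300 and 5429 counts (1.52).

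The members with the lowest ratios that have not been named above were within 2-fold after TMM scaling. They were *2010320M18Rik* (363 and 153 counts, log2 ratio -0.96), *5033406O09Rik* (452 and 194, -0.94) and *Hyi*, a putative hydroxypyruvate isomerase gene with 3794 and 1714 counts (-0.87). Scaled by library totals, *2010320M18Rik* (-1.03) and *5033406O09Rik* (-1.01) were past 2-fold, and by the upper quartile all 3 were (-1.09, -1.07 and -1.0005). Their values with the trends removed were -0.33, -0.50 and 0.067, and *Hyi* changed sign. At the count limit, the members just inside were *2810013P06Rik* (155 and 200 counts), *Erdr1* (197 and 200) and *Gbp11* (44 and 200). Just outside it were *Trmt61b* (197 and 84), *Gm4013* (197 and 89) and *Mirt2* (193 and 118).

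Of the 24 members with several transcript variants, 4 with named roles are shown by variant. The division of counts between variants is the estimate of the authors' program and not a count of reads unique to each. The *Tug1* variant of 6719 bases had 10 counts with AAV-GFP and 270 with AAV-*Wee1-AS*, so its share of the gene went from 6.80% to 38.4%. The variant of 5127 bases had 137 and 430, and the third, of 4731 bases, had 0 and 3. The log2 ratios of the 6719-base and 5127-base variants were 4.76 (4.13 to 6.11) and 1.91 (1.65 to 2.22). These intervals do not overlap, but they leave out the error of dividing reads between variants. No difference between the variants is therefore read from them.

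*Gas5* was also uneven. Its 751-base variant had 251 and 500 counts (log2 ratio 1.26) and its 710-base variant 537 and 546 (0.30). The minor variants of 673 and 639 bases had 68 and 59, and 7 and 33. The 751-base variant thus took 29.1% and 43.9% of the gene's counts. *Oip5os1* had 176 and 328 counts for its 1551-base variant (1.17, 0.91 to 1.45) and 55 and 182 for its 1382-base variant (1.96, 1.56 to 2.47). *Urml*, a lncRNA named for its increase in livers driven by Myc, had 338 and 693 counts for its 1504-base variant (1.31, 1.12 to 1.51) and 442 and 556 for its 1472-base variant (0.61, 0.43 to 0.79). In each of these 4 genes, both main variants were higher with AAV-*Wee1-AS*, by unequal amounts, but they are not typical of all. Over the 24 members, the pair of variants with the most counts was above 0 in both variants in 13, below 0 in both in 5 and of unlike sign in 6. Second variants with few counts were included, such as those of *Brip1os* (0 and 1 counts) and *Gm35986* (1 and 2), and their signs carry little information. The main variants of *1810058I24Rik* were both lower (-0.58 and -0.41). *Gm15417* had 308 and 120 counts for its 1464-base variant (-1.07) and 17 and 34 for its 925-base variant (1.18).

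**Figure D4:**
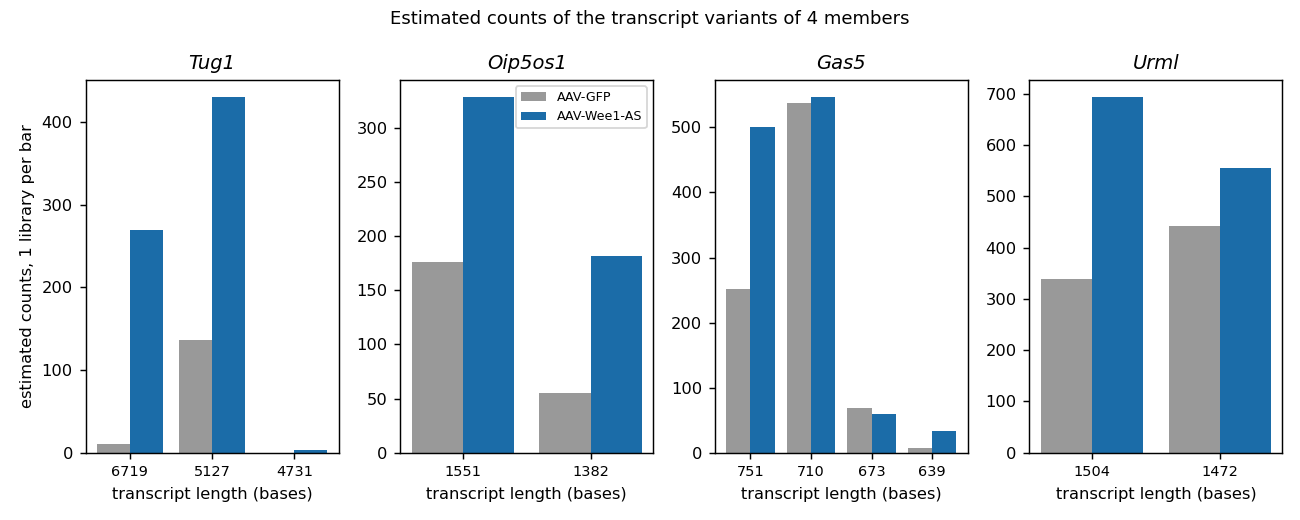
Estimated counts (vertical, from 0) of each transcript variant of *Tug1*, *Oip5os1*, *Gas5* and *Urml*, by transcript length in bases (horizontal), with 1 bar per library and no error bars because each bar is 1 library. The 6719-base *Tug1* variant went from 10 to 270, and the 710-base *Gas5* variant from 537 to 546.

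The ratios followed base composition. Across the 97 members with a GENCODE transcript, the Spearman coefficient of the log2 ratio with GC content was -0.53, and across all 15139 genes with at least 10 counts and a transcript it was -0.69. These are descriptions across genes of the same 2 libraries, and genes are not independent replicates. When those genes were put into 10 groups of equal size by GC content, their median log2 ratio went from 1.53 in the lowest group to -0.68 in the highest. The members' medians went from 1.02 to -0.51 over the same groups, without a steady order in between. In the 3 lowest groups, 12 of 33 members were past 2-fold higher and 0 lower, and in the 2 highest, 0 of 13 were higher and 4 lower. Of the genes with 200 counts in a library, 59.0% were higher and 0.278% lower in those 3 lowest groups, and 0.331% and 13.1% in the 2 highest. Members past 2-fold higher had a median GC content of 44.9% (36.7% to 51.2%), and those lower had 58.0% (47.8% to 62.3%).

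The middle 120 bases of the GENCODE transcripts of *Hectd2os* and *BC029722* are given as examples. *Hectd2os* is the member past 2-fold higher with the lowest GC content. *BC029722*, the lowest in ratio, has the highest GC content of those past 2-fold lower outside the small RNAs. G and C are in capitals, and they make up 29.2% and 58.3% of the stretches, beside 36.7% and 58.0% of the whole transcripts:

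Hectd2os: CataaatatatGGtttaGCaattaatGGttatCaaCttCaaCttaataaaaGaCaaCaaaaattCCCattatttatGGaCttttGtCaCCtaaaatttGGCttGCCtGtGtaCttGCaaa
BC029722: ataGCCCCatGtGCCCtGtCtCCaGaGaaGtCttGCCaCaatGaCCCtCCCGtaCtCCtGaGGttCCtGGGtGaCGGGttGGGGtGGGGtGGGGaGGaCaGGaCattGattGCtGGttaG

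Transcript length moved with the ratio as well, with a Spearman coefficient of 0.48 across the members and 0.37 across all genes with at least 10 counts and a transcript. Members past 2-fold higher had a median length of 2789 bases, those within 2-fold 1395.5 bases and those lower 332 bases. With both trends of all genes removed, 13 of 97 members were past 2-fold higher and 7 lower, beside 6.28% and 7.72% of all genes and 3.76% and 3.93% of genes with 200 counts in a library. These genes share the count limit with the members and were not matched for abundance, and 8 of the 13 higher members and 4 of the 7 lower ones reached 200 counts only in the library where they were higher. Of the 64 members with a GC value and 200 counts in both libraries, 5 were higher and 3 lower with the trends removed, beside 2.56% and 3.32% of the 8609 genes of that kind. Of the 68 members whose GENCODE transcript was within 20% of the deposited length, 7 were higher and 5 lower, beside 3.86% and 3.60% of 7491 such genes with 200 counts in a library. Both subsets were chosen after seeing the data. Of the 18 higher members with a GC value, 7 stayed past 2-fold and 16 stayed above 0, and of the 5 lower members, 1 (*Snhg18*) stayed past 2-fold and 4 stayed below 0. *C730036E19Rik* (2.70), *Gbp11* (1.68), *2900097C17Rik* (1.44), *Firre* (1.41), *4930581F22Rik* (1.35), *Ctcflos* (1.30) and *Gm14403* (1.05) were the ones that stayed higher, and all but *2900097C17Rik* (6 of the 7) reached 200 counts with AAV-*Wee1-AS* alone. The GC values of *C730036E19Rik* and *Gm14403* come from GENCODE transcripts of 1102 and 1209 bases, much shorter than the deposited models of 2640 and 3691 bases. The same holds for *Marcksl1-ps4* (291 and 1043 bases), *Gm3219* (303 and 632) and *1810019D21Rik* (948 and 1647), while that of *A730017L22Rik* is longer (2884 and 2375), and these 4 are past 2-fold higher only with the trends removed. Whether the trend came from the livers or from library preparation cannot be told apart with 1 library per group.

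**Figure D5:**
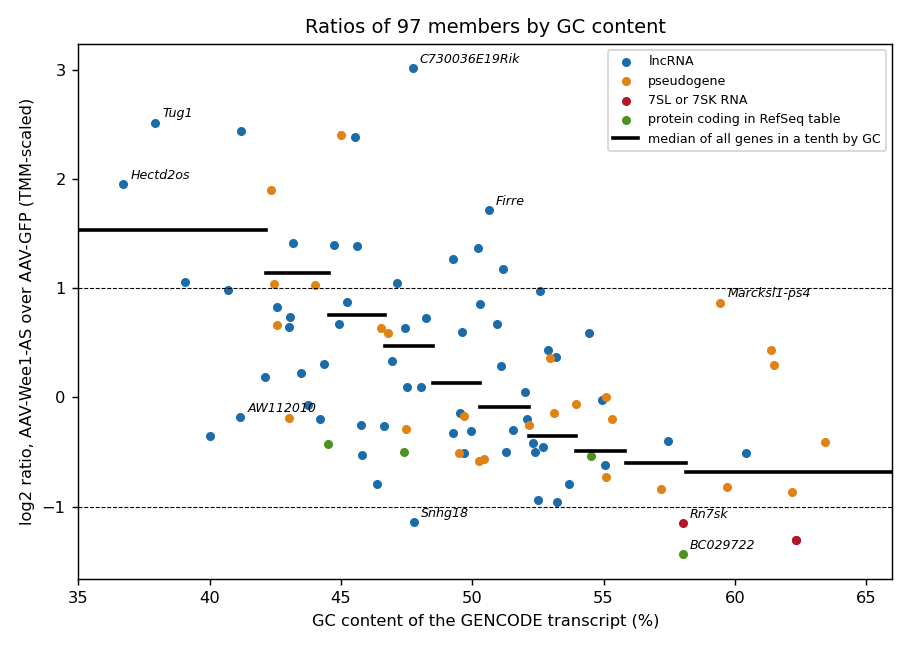
Log2 ratio (vertical) against GC content of the GENCODE transcript in percent (horizontal) for 97 members, coloured by class. Black bars give the median of all genes in each of 10 groups of equal size by GC content, from 1.53 to -0.68. *C730036E19Rik*, *Firre* and *Marcksl1-ps4* stand well above the bar at their GC content (the GENCODE transcripts of *C730036E19Rik* and *Marcksl1-ps4* are much shorter than the deposited models), and *Snhg18* and *AW112010* well below it.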

How the data were processed

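Poly-A RNA of 1 liver library per group was sequenced. For each RefSeq transcript of mm10, the authors deposited values as an estimated count, as FPKM and as TPM. The estimated counts were not normalized and were already whole numbers. The submitters' processing notes name Trimmomatic 0.38, HISAT2 2.1.0, SAMtools 1.9 and StringTie 2.1.3b. Their settings, strand included, are not given in the sources used here, so the division of reads between like or overlapping transcripts is unknown.

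Counts were summed by gene symbol, scaled by TMM (edgeR 4.0.16, R 4.3.3) over genes with 10 counts in at least 1 library, and compared as log2 ratios with a prior count of 2. No count test was run, since 1 library per group gives no spread. A Clopper-Pearson 95% interval covers counting error only, and it treats the estimated counts as independent reads. Error in the division of reads between transcripts is not covered. Sequencing was paired-end, and if both ends of a fragment were counted, the intervals are too narrow. A partner at 3 counts or fewer was left out of pair summaries. Classes came from the RefSeq gene table by gene ID (99 of 100 matched), GC content from the GENCODE vM21 (GRCm38) transcript nearest in length (97 members, of which 29 differed in length by more than 20%), and near-identical transcripts from BLAST 2.17.0. Trends with GC content and length were removed by lowess (span 0.3, 5 cycles). Python 3.11.15 was used. The log2 ratio, the counting interval and the removal of a single trend were tested on simulated data with independent counts. Removal of both trends together and the comparisons with partners and between variants were not tested in that way. Sequences came from GENCODE and, for microRNAs, RefSeq.

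Members, lists and tests were chosen with earlier results of these data known. The named members are the 10 highest in mean FPKM, the 10 highest and 10 lowest ratios, the 5 nearest to equality with 1000 counts in both libraries, list members, and 3 on each side of the count limit. Other members and all partner genes were chosen after their values were seen. Alternatives were other scalings, count limits, units, trends and member sets. A few items are not reported here.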

Additional observations from a re-analysis of the deposited data

How the results depend on the processing

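With 1 library per group, no alternative replaces replicates, and no paired analysis was possible because each group has 1 library. The count of members past 2-fold higher was 19 and lower 5. The count higher was 9 from FPKM and 11 from TPM with a pseudocount of 1. A pseudocount shrinks low values, but unit and scaling changed along with it. The count higher was 9 with 200 counts required in both libraries, where 67 members were left. It was 25 with the length trend removed and 28 over 127 transcripts in place of genes. The count lower was 8 with upper-quartile scaling, 1 with the length trend removed, 3 with 200 counts in both libraries, 9 over those transcripts, and 3 without members that have a near-identical transcript, an alternative chosen after seeing the data. With the GC and length trends removed, the counts were 5 and 3 over the 64 members with 200 counts in both libraries and 7 and 5 over the 68 with a GENCODE transcript of like length, subsets likewise chosen after seeing the data. *Rn7sk* went from -1.15 to 0.019 with the GC and length trends removed. The median log2 ratio of the members stayed within -0.092 and 0.20 under all alternatives run. Its 95% order-statistic interval was -0.19 to 0.37. That interval treats genes as independent and reflects the spread between genes, so it is no measure of stability. All 24 members past 2-fold kept their direction under the other scalings, the prior count of 0.5, FPKM, TPM and removal of the length trend, and 20 of 23 did so with both trends removed. Scaling by the upper quartile put the median of all genes at -0.13. The widest counting interval of any member was that of *Gbp11* (1.99 to 2.97), which had 44 counts with AAV-GFP.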
